A study of Homo sapiens with 24 samples.

Results

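The genes described here encode the MHC class I chains and the machinery that loads peptide onto them: HLA-B, HLA-C, HLA-E, HLA-F, B2M, TAP1, TAP2, TAPBP and NLRC5. They were chosen by name, as every array probe annotated to 1 of these 9 genes. This gave 15 probes of 47220, or 9 genes of 20045 with a probe: 1 each for HLA-B, HLA-E, TAP1 and NLRC5, 2 each for HLA-C, HLA-F, B2M and TAP2, and 3 for TAPBP. RNA came from MM1S, a glucocorticoid (GC) sensitive human multiple myeloma line, and from MM1R, a resistant subclone of it obtained under chronic dexamethasone (Dex) exposure, so each line stands for 1 clone. In the first experiment MM1R and MM1S cells received 1 µM Dex for 72 h or were left untreated. In the second, both lines were electroporated with 150 nM of a synthetic mir-150-5p mimetic or mock transfected, and were likewise taken at 72 h. Each of the 8 groups has 3 Illumina HumanHT-12 arrays, 12 arrays per experiment, and the study's methods call them independent experiments.

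MHC class I molecules carry peptides made inside the cell to its surface, where CD8+ T cells read them. A heavy chain (HLA-B and HLA-C are classical ones, HLA-E and HLA-F non-classical) pairs with the light chain beta-2 microglobulin, encoded by B2M. TAP1 and TAP2 together form the transporter that moves peptides into the endoplasmic reticulum, and tapasin, encoded by TAPBP, bridges that transporter to the empty heavy chain. HLA-E presents leader peptides of other class I chains to an inhibitory receptor of natural killer cells. NLRC5 is a transactivator of class I promoters, which it reaches through proteins bound at a conserved stretch holding the X and Y boxes. In plasma cells and their malignant counterpart, myeloma, class I chains share the secretory pathway with large amounts of immunoglobulin, and B2M protein is a serum marker of the disease.

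The promoter letters of the genes whose probes carry the results below, or that pair with them in the complex, are shown first, because a shared promoter architecture is what this gene group is known for. RefSeq's table (GRCh38.p14) held a promoter for 7 of the 9 genes, 8 start sites in all. The search covered the 250 bases upstream of each start. On both strands, the letters were ATTGG (Y box), TGACG (the core of the X2 box), GGGA and CC with 4 bases between them (kappa B), and GAAA or GAA followed after 2 bases by GAAA (the longer and shorter form of an interferon-stimulated response element, ISRE). Capitals mark every match, and each window runs from 5 bases before the first match to 5 after the last, or to the start site where that is nearer.
HLA-B, chr6:31357226-31357361, minus strand: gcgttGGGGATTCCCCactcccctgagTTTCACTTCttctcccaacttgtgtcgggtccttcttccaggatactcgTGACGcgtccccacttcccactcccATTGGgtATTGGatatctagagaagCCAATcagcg
HLA-C, chr6:31272139-31272289, minus strand: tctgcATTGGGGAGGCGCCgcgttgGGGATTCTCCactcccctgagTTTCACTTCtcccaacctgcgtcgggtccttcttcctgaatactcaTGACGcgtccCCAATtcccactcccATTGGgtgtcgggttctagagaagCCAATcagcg
HLA-F, chr6:29723273-29723386, plus strand: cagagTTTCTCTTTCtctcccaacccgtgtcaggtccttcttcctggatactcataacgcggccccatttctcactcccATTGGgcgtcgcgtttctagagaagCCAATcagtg
B2M, chr15:44711368-44711477, plus strand: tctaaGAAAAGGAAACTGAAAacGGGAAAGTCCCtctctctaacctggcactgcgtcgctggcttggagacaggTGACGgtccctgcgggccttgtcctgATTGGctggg
TAP2, chr6:32838765-32838807, minus strand: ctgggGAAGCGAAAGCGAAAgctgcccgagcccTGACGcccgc
TAPBP, chr6:33314079-33314180, minus strand: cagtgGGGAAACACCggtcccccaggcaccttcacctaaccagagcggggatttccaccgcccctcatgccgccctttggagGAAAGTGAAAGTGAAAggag

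HLA-B, HLA-C and B2M held TGACG followed on the gene's strand by ATTGG, with 20, 20 and 21 bases between them. HLA-F, TAP1, TAP2 and TAPBP, the other genes searched, did not hold this pair. A spacing of 15 to 25 bases between these letters occurred in 0.219% of the 35116 promoters in the table. HLA-F held ATTGG, and TGACG did not occur in its window. Each of the 6 promoters shown held at least 1 of the ISRE forms. Taken singly these matches are common: ATTGG was in 32% of all promoters of the same length, the kappa B letters in 22.6%, TGACG in 21.2%, the shorter ISRE form in 6.56% and the longer in 3.02%. Matches of 1 kind overlap in the HLA-B and B2M kappa B stretch, read on either strand, and in the ISRE stretches of B2M, TAP2 and TAPBP, and HLA-C has a Y box that shares a base with a kappa B match. No binding was measured here.

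Values are log2 probe intensities after quantile normalization, which gives every array the same distribution. A probe counted as over background on an array where its detection p-value was under 0.05, and it was tested where 3 or more arrays of the fit passed. Between 17059 and 21328 probes per array passed, with a median of 19484.5. All 8 plasma cell markers were over background on all 24 arrays. Of the markers of T cells, natural killer cells, monocytes, mature B cells, fibroblasts and epithelial cells, none was over background on all 24, and of 2 erythroid markers on the array 1 was. The 3 MM1S arrays labelled mimetic do not lie together. Taken over the probes that passed on 3 or more of the 24 arrays, the SD of the log2 difference was 0.113 between replicates 1 and 2. It was 0.305 to 0.307 from replicate 3 to either of them. From replicate 3 to the mock arrays it was 0.153 to 0.198, against 0.309 to 0.362 from replicates 1 and 2. Results on the mimetic in MM1S are therefore given with and without the library labelled replicate 3.

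Of the 15 probes, 13 were over background on all 24 arrays. The second HLA-C probe passed on 1 array and the NLRC5 probe on 3, so neither supports a fold change between conditions. NLRC5 lay between 6.85 and 7.19 on the log2 scale over all 24 arrays, not well above background in any group. The light chain stood at the other end of the scale. B2M probe 1 had raw intensities of 15511 to 26648, which gave it ranks 62 to 195 on its array and 0.39 to 1.05 log2 units below the array's brightest probe. B2M probe 2 had 10881 to 19226, between 0.86 and 1.54 log2 units below the brightest probe. The brightest probes themselves read 28432 to 37982, so B2M had little room above it. Whether this compressed differences in B2M was not tested. HLA-B was at 1922 to 5297 and HLA-E at 2718 to 5901, at least 2.67 log2 units below the top. Probes of the class I heavy chains can also capture each other's closely related transcripts, so a value belongs to the probe first and to the gene with that limit.

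**Figure D1:**
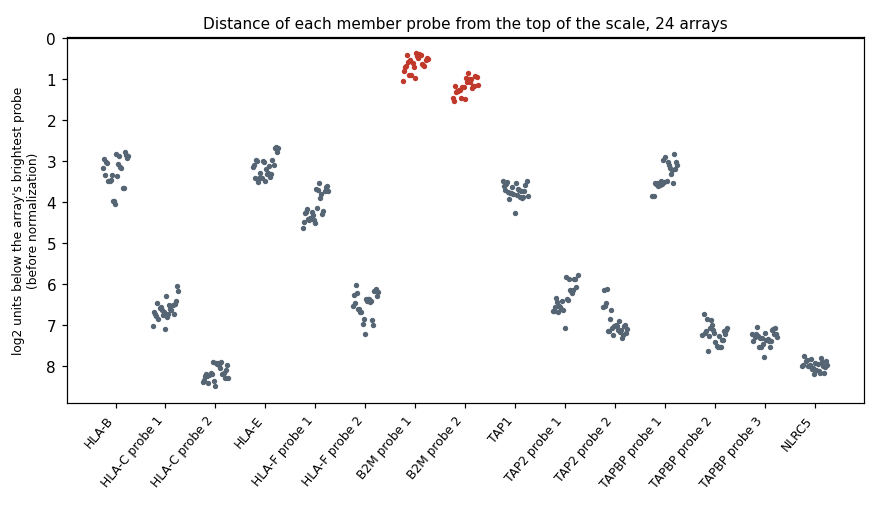
Distance in log2 units of each probe below the brightest probe of its array before normalization, 1 point per array (24 arrays), with 0 at the top. The B2M probes (red) lie 0.39 to 1.54 units from the top, while NLRC5 and HLA-C probe 2 lie near 8 units down, at background; distances of different probes are not RNA levels that can be set against each other.

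Dex lowered HLA-B in MM1S cells and left most of the other chains and the loading machinery without a called change. HLA-B had 11.03, 11.12 and 11.36 log2 units in Dex treated MM1S arrays, against 11.74, 11.61 and 11.71 in untreated MM1S arrays. All 3 treated values lay below all untreated ones, and the change was -0.52 ± 0.12 (SE; adjusted p = 0.0030, limma with Benjamini-Hochberg adjustment over all probes tested), 1.43-fold lower with Dex. HLA-F probe 2 had 7.98, 8.21 and 8.10 in Dex treated arrays, against 8.57, 8.40 and 8.38 in untreated arrays, a change of -0.35 ± 0.12 (adjusted p = 0.033). The groups did not overlap here either, but the call was lost when any single untreated array, or Dex replicate 1 or 3, was left out, with changes of -0.39 to -0.30, and with median centring of the arrays (adjusted p = 0.133). HLA-B kept its call in all 6 fits that left out 1 array, at -0.61 to -0.45, and lost it where all 24 arrays shared 1 estimate of the spread (adjusted p = 0.078).

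Thus 2 of the 13 probes tested were lower with Dex in MM1S and 0 higher, while 11.2% of all 21486 probes tested were lower and 11.9% higher (23.1% in either direction). The members' share of calls was therefore near that of all probes. The same gene's other probe did not follow in HLA-F: probe 1 had 10.68, 10.65 and 10.88 with Dex, against 10.80, 10.72 and 10.82 without, a difference of -0.04 with a 95% interval of -0.26 to 0.17. HLA-F probes 1 and 2 are annotated to different transcripts of the gene. HLA-C probe 1 had 8.21, 8.38 and 8.24 with Dex, against 8.58, 8.52 and 8.43 without. These groups did not overlap, as in 39.4% of all probes, yet the change of -0.23 did not pass (adjusted p = 0.119).

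HLA-E, the ligand of the inhibitory natural killer receptor, went the other way. It had 11.99, 12.03 and 11.92 with Dex, against 11.80, 11.79 and 11.64 without, and its change of 0.24 (95% interval -0.0010 to 0.47) did not pass (adjusted p = 0.154). It passed in the fit over the Dex and untreated MM1S arrays alone (adjusted p = 0.045) and with array weights (adjusted p = 0.039). The light chain and TAP1 gave small differences. B2M probe 1 averaged 14.28 ± 0.06 with Dex and 14.35 ± 0.18 without (SD, n = 3 each), a difference with an interval of -0.26 to 0.12, and probe 2 gave -0.20 to 0.17. TAP1 had 11.39, 11.27 and 11.14 with Dex, against 11.31, 11.31 and 11.32 without, with an interval of -0.25 to 0.16. TAP2 gave differences of -0.13 at probe 1 (95% interval -0.34 to 0.09) and -0.20 at probe 2 (-0.57 to 0.17), neither passing. TAPBP probe 1 had 11.46, 12.10 and 11.88 with Dex, against 11.68, 11.49 and 11.57 without. Replicate 1 lay below the untreated range and the other treated arrays above it, so that the change of 0.23 (adjusted p = 0.225) became 0.41 (adjusted p = 0.018) without that array.

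**Figure D2:**
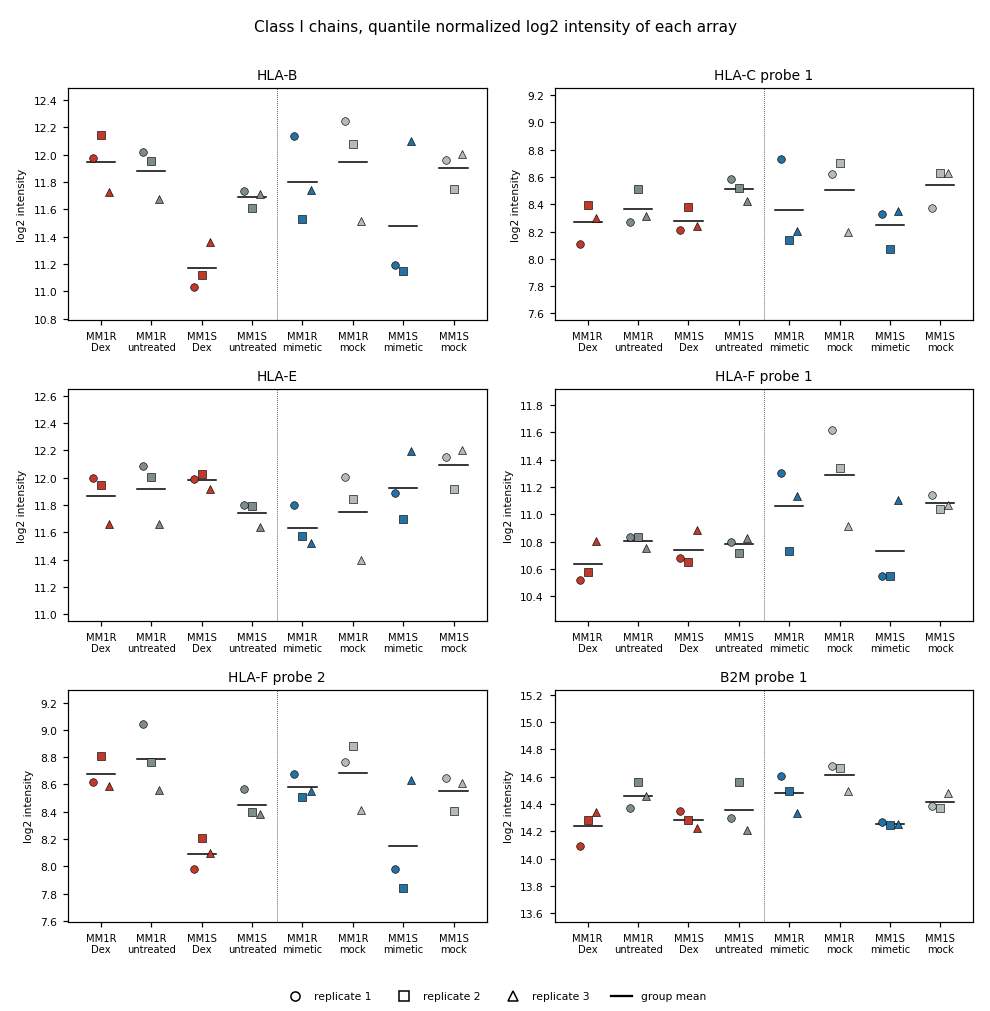
Quantile normalized log2 intensity of the class I heavy chain probes and B2M probe 1 on each of the 24 arrays, by group; points are arrays, with the shape giving the replicate, bars are group means of 3 arrays, the dotted line parts the Dex and transfection experiments, and every panel spans the same range. HLA-B is lower in all 3 Dex treated MM1S arrays than in the untreated ones, and among MM1S mimetic arrays only replicates 1 and 2 lie below mock.

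In MM1R, the resistant line, no member passed the test with Dex. HLA-B had 11.98, 12.14 and 11.73 in Dex treated MM1R arrays, against 12.02, 11.95 and 11.67 in untreated ones. The groups overlap almost wholly, and the difference of 0.07 has a 95% interval of -0.18 to 0.32. Of 13 probes 0 passed (limma; 1 at an unadjusted p under 0.05), as did 0% of all probes. That 1 was B2M probe 1, with 14.09, 14.28 and 14.34 with Dex, against 14.37, 14.56 and 14.46 without, a difference of -0.22 ± 0.09 with an adjusted p of 0.997.

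The response of HLA-B differed between the lines. Its Dex effect in MM1S minus that in MM1R was -0.58 ± 0.17 (95% interval -0.93 to -0.23, adjusted p = 0.023), the 1 of 13 probes for which this interaction passed, against 14.7% of all probes. Leaving out single arrays kept it between -0.69 and -0.48, but the adjusted p rose over the threshold, to between 0.053 and 0.070, in 6 of the 12 such fits. It was 0.061 with median centring and 0.223 with all 24 arrays in 1 fit. TAPBP probe 1 had an interaction of 0.40 that did not pass (adjusted p = 0.164) and that was 0.57 (adjusted p = 0.021) without MM1S Dex replicate 1. For HLA-F probe 2 it was -0.24 (adjusted p = 0.394), so its Dex effect was not shown to differ between the lines. The remaining probes gave -0.39 (TAP2 probe 2) to 0.28 (HLA-E).

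**Figure D3:**
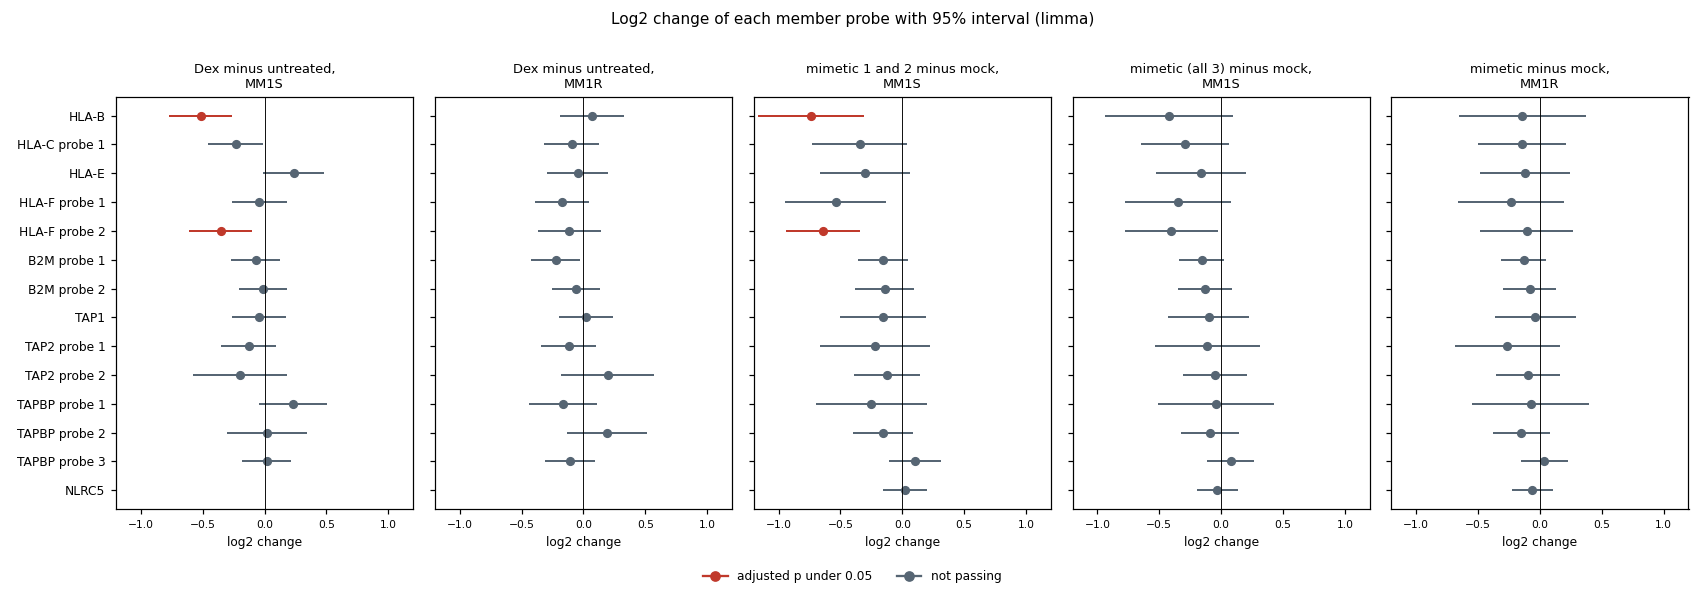
Log2 change of each probe tested, with its 95% interval from limma, for Dex against untreated cells and for the mimetic against mock transfection; red marks an adjusted p under 0.05. HLA-B and HLA-F probe 2 are red with Dex in MM1S and with mimetic replicates 1 and 2 in MM1S, and no probe is red in MM1R or with all 3 MM1S mimetic arrays.

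Around the members, several genes of protein entry and folding in the endoplasmic reticulum changed with Dex in MM1S. This list includes genes of class I assembly but is not particular to class I. Of 10 such genes tested, 5 fell and 1 rose, with a median of -0.29 against 0.01 over all genes, where 13.5% fell and 14.3% rose. HSP90B1, the endoplasmic reticulum chaperone GRP94, fell by 0.66 on the log2 scale (adjusted p = 7.5e-07). CALR, the calreticulin of the peptide loading complex, changed by -0.50, and GANAB, a glucosidase that trims glycans of new glycoproteins, by -0.49. TAPBPL, a tapasin-related peptide editor, changed by +0.52 (adjusted p = 0.0020). TAPBP itself had no called change. Of the proteasome and peptide trimming genes, 1 of 11 was called, PSME2, a subunit of the proteasome activator PA28, at -0.29.

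Of 17 regulators of class I transcription tested, 4 rose and 2 fell with Dex in MM1S, where 14.3% of all genes rose and 13.5% fell. IFNGR1, a chain of the interferon gamma receptor, rose by 1.08 and IRF9, which carries STAT proteins to ISREs, by 0.79. JAK1, a kinase of interferon receptors, rose by 0.55, and EZH2, a histone methyltransferase of Polycomb repression, fell by 1.11. Of 6 class I-like genes tested, MICB alone was called, a stress ligand of the activating receptor NKG2D, at -0.98 ± 0.12 (adjusted p = 2.0e-06). Of 9 genes of surface turnover, UBE2J1 (+0.38) and B4GALT5 (+0.27) rose, and ADAM10, a sheddase, fell by 0.31. With these shares over all genes, counts in lists of 6 and 9 genes are not read as a result about the lists. In MM1R 0 genes of these 5 lists were called with Dex, as over all genes (0%).

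The effect of the mir-150-5p mimetic on HLA-B in MM1S rested on which libraries entered. HLA-B had 11.19, 11.15 and 12.10 in mimetic replicates 1, 2 and 3, against 11.96, 11.75 and 12.004 in mock arrays. Replicates 1 and 2 lay below every mock value, and replicate 3 above them all. Over all 3 arrays the change was -0.42 ± 0.24 (adjusted p = 0.366), and 0 of 14 probes passed (limma; 1 at an unadjusted p under 0.05), against 0.586% of all probes. Without replicate 3 it was -0.73 ± 0.20 (adjusted p = 0.019), 1.66-fold lower. HLA-F probe 2 behaved alike, with 7.98, 7.84 and 8.63 in mimetic replicates 1, 2 and 3, against 8.64, 8.41 and 8.61 in mock arrays. Its change was -0.40 over all 3 arrays (adjusted p = 0.223) and -0.64 ± 0.14 without replicate 3 (adjusted p = 0.0038). These 2 were the probes called of 14 without that library, both lower, when 8.15% of all probes were lower and 15.5% called in either direction. The fit without replicate 3 was added after seeing the data. It drops the mimetic array that lay nearest mock, which favours larger changes from mock, so its calls are descriptive.

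HLA-F probe 1 showed the same split of arrays. It had 10.55, 10.55 and 11.10 in mimetic replicates 1, 2 and 3, against 11.14, 11.04 and 11.07 in mock arrays, and without replicate 3 its change of -0.54 did not pass (adjusted p = 0.068). B2M probe 1 did not split. It had 14.27, 14.25 and 14.25 in mimetic arrays, against 14.39, 14.37 and 14.48 in mock arrays, a separation without overlap of -0.16 (adjusted p = 0.315) that all 3 libraries share. HLA-C probe 1 had 8.33, 8.07 and 8.35 in mimetic arrays, against 8.37, 8.63 and 8.63 in mock arrays, likewise without overlap (-0.29, adjusted p = 0.357). Of all probes 20.1% had groups that do not overlap in this comparison. With 2 mimetic arrays the HLA-B call was also lost on leaving out either of them or mock replicate 3, with changes of -0.81 to -0.68 over the 5 such fits. That of HLA-F probe 2 was lost on leaving out mimetic replicate 2 (-0.57, adjusted p = 0.079). Leaving out either mimetic array here leaves 1, which is assumed to vary like the other groups.

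In MM1R the mimetic gave no called member. HLA-B had 12.14, 11.53 and 11.74 in mimetic arrays, against 12.24, 12.07 and 11.52 in mock arrays. Mimetic replicate 1 lies with mock replicates 1 and 2, and mock replicate 3 with the lower mimetic arrays. TAPBP probe 1 had 12.06, 11.39 and 11.80 in mimetic arrays, against 12.04, 12.04 and 11.39 in mock arrays. Here too mimetic replicate 1 lay near mock replicates 1 and 2, and mock replicate 3 near the lowest mimetic array. Of 14 probes 0 passed in MM1R (limma; 0 at an unadjusted p under 0.05), as did 0% of all probes. The interval for HLA-B, -0.65 to 0.37, includes the change measured with Dex in MM1S. It also includes the MM1S mimetic change over all 3 arrays (-0.42), while that without replicate 3 (-0.73) lies outside it. The difference of the mimetic effect between MM1S and MM1R passed for 0 of 14 probes and 0% of all (limma; 0 at an unadjusted p under 0.05), with values of -0.29 (HLA-F probe 2) to 0.15 (TAP2 probe 1). Without MM1S mimetic replicate 3 it was -0.59 for HLA-B (adjusted p = 0.202) and -0.53 for HLA-F probe 2 (adjusted p = 0.089), and again 0 of 14 passed, against 7.49% of all probes.

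Among neighbouring genes, 0 of the 5 lists had a call for the mimetic over all arrays in either line. Without MM1S mimetic replicate 3, MICB changed by -1.01 (adjusted p = 8.6e-05), ULBP1, another NKG2D ligand, by -0.44, and HLA-G, a non-classical heavy chain, by -0.49. In that fit 3 of 7 class I-like genes tested fell and 0 rose, where 9.74% of all genes fell and 9.57% rose. As for the short lists above, this count is not read as a result about the list. The fit was added after seeing the data, and over all arrays 0 of 8 class I-like genes were called. The HLA-G probe can also capture transcripts of related heavy chains, so its value may not be independent of the members. Without replicate 3, HSP90B1 (-0.71), SEC61A1 (-0.68) and SEC61B (-0.36) were the 3 called of 10 genes of entry and folding in the endoplasmic reticulum. The SEC61 genes encode parts of the translocon that brings new chains into it. Of the regulators, IFNGR1 rose by 0.74, EZH2 fell by 0.57 and RFXAP, a subunit of the RFX complex bound at the X box, fell by 0.54.

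Between untreated MM1R and untreated MM1S cells, 1 of 13 probes passed, higher in MM1R, against 4.22% of all probes higher (8.12% in either direction). This was TAPBP probe 3, with 7.81, 7.89 and 7.87 in MM1R arrays, against 7.496, 7.71 and 7.45 in MM1S arrays, a change of 0.31 ± 0.09 (adjusted p = 0.045). The other TAPBP probes gave -0.06 and -0.18, neither passing, and the call on probe 3 was lost in 5 of 6 fits that each left out 1 array. Without MM1R untreated replicate 3, HLA-F probe 2 (0.45, adjusted p = 0.024) and TAP2 probe 2 (0.52, adjusted p = 0.0497) were called in its place. Over all arrays HLA-F probe 2 was 0.34 ± 0.12 higher in MM1R without passing (adjusted p = 0.083), with 9.04, 8.76 and 8.56 in MM1R arrays, against 8.57, 8.40 and 8.38 in MM1S arrays. HLA-B averaged 11.88 ± 0.19 in MM1R and 11.69 ± 0.07 in MM1S (SD, n = 3 each), a difference with an interval of -0.05 to 0.44.

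Between mock transfected MM1R and MM1S cells 0 of 14 probes passed (limma; 2 at an unadjusted p under 0.05), although 30.5% of all probes did. The 2 were B2M probe 1, with 14.68, 14.66 and 14.49 in MM1R arrays, against 14.39, 14.37 and 14.48 in MM1S arrays (0.20 ± 0.08, adjusted p = 0.078), and TAP2 probe 2 (0.28 ± 0.12, adjusted p = 0.081). After normalization MM1R mock replicate 3 was the lowest of its group at 13 of the 15 probes, and the share over all probes was not computed. HLA-E had 11.40 there, against 12.001 and 11.84 in the other arrays of that group. Before normalization HLA-E read 3859, 3155 and 3517 in MM1R mock replicates 1, 2 and 3, so replicate 2 was then the lowest. Without MM1R mock replicate 3, B2M probe 1 (0.26, adjusted p = 0.029) and TAP2 probe 2 (0.42, adjusted p = 0.0090) passed. Among regulators of class I in the same comparison, 9 of 18 were lower in MM1R and 1 higher, where 17.7% of all genes were lower and 15.3% higher. JAK1 changed by -1.67 ± 0.19, RFX5, the DNA binding subunit of the RFX complex, by -0.63, and NFYA, a subunit of the factor that binds the Y box, by -0.38. Between the untreated lines 1 of 17 regulators tested was lower in MM1R and 2 higher, where 4.26% of all genes were lower and 5.23% higher. Of 11 proteasome and peptide trimming genes, 2 were higher in mock MM1R cells and 1 lower. Those higher were the immunoproteasome subunits PSMB8 (+0.61) and PSMB9 (+0.57). Between the untreated lines 0 of these 11 genes were called, where 9.48% of all genes were.

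**Figure D4:**
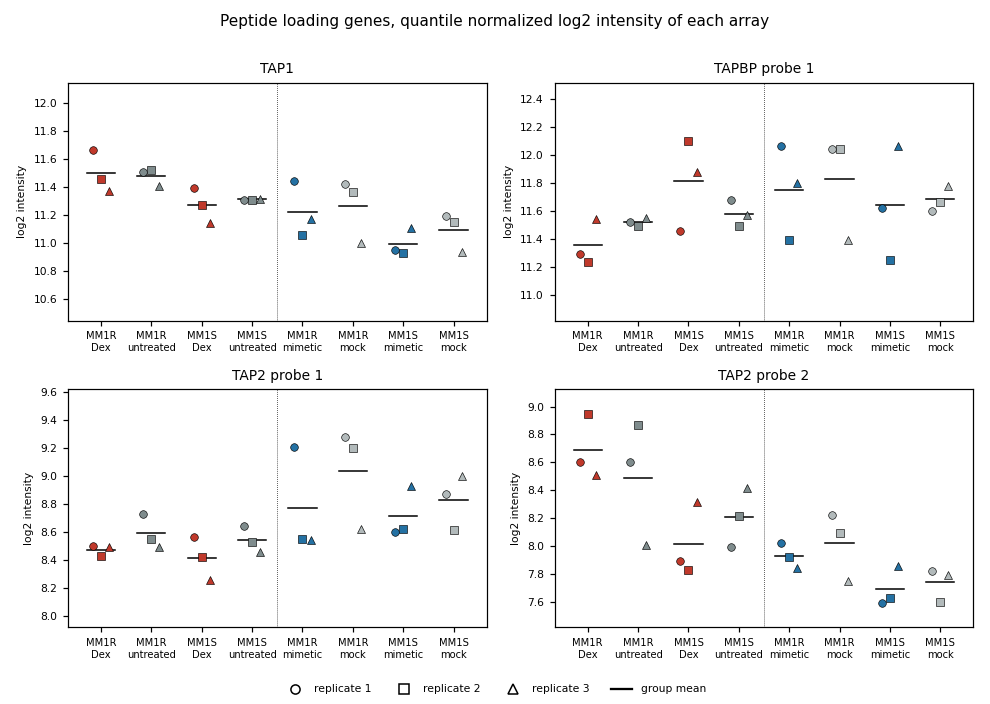
Quantile normalized log2 intensity of TAP1, TAPBP probe 1 and both TAP2 probes on each of the 24 arrays, by group; points are arrays, with the shape giving the replicate, bars are group means of 3 arrays, and the dotted line parts the Dex and transfection experiments. TAP2 probe 1 is mostly higher and TAP2 probe 2 mostly lower right of the line than left of it.

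Mock transfected against untreated cells sets 1 experiment against the other, so that electroporation, culture and handling cannot be told apart. Here the transporter subunit TAP2 gave opposite readings at its probes, which are annotated to different transcripts. TAP2 probe 2 had 7.83, 7.61 and 7.80 in mock MM1S arrays, against 7.997, 8.22 and 8.42 in untreated MM1S arrays, a change of -0.47 ± 0.17 (adjusted p = 0.039). In MM1R it had 8.23, 8.10 and 7.75 in mock arrays, against 8.60, 8.87 and 8.01 in untreated arrays, also -0.47 (adjusted p = 0.049), with overlap. TAP2 probe 1 changed by 0.29 in MM1S (adjusted p = 0.199) and by 0.44 in MM1R (adjusted p = 0.051), neither passing. Taken within each array, probe 1 minus probe 2 was 1.01 to 1.21 in mock MM1S arrays, against 0.05 to 0.65 in untreated MM1S arrays. It was 0.87 to 1.10 in mock MM1R arrays, against -0.32 to 0.49 in untreated MM1R arrays, so the groups did not overlap in either line. In MM1S the mimetic arrays lay near the mock arrays, at 0.99 to 1.07. In MM1R mimetic replicates 1, 2 and 3 had 1.19, 0.62 and 0.70, all above the untreated MM1R arrays. Replicates 2 and 3 of these lay below every mock MM1R array, and replicate 2 lay within the range of untreated MM1S arrays. How often 2 probes of other genes part in this way was not computed. Of all single probes, 42.9% in MM1S and 34.7% in MM1R had mock and untreated groups that did not overlap. The calls at probe 2 were lost in 5 of 6 fits leaving out 1 array in MM1S and in 4 of 6 in MM1R.

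Of 14 probes, TAP2 probe 2 was the 1 called in MM1S, lower in mock, when 12.5% of all probes were lower (26.1% in either direction). In MM1R 2 were called, TAP2 probe 2 and HLA-F probe 1, against 19.7% of all probes. HLA-F probe 1 had 11.62, 11.34 and 10.91 in mock MM1R arrays, against 10.84, 10.83 and 10.75 in untreated ones, a change of 0.48 ± 0.16 (adjusted p = 0.034) that leaving out any array but mock replicate 3 brought over the threshold. In MM1S the same probe had 11.14, 11.04 and 11.07 in mock arrays, against 10.80, 10.72 and 10.82 in untreated arrays. The change of 0.30 did not pass (adjusted p = 0.172), and the groups did not overlap, as in 42.9% of all probes. HLA-E in MM1S had 12.15, 11.91 and 12.20 in mock arrays, against 11.80, 11.79 and 11.64 in untreated arrays (0.35, adjusted p = 0.084).

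The scaling weighs on this comparison. With arrays centred on their medians in place of quantile normalization, the median of all probes tested moved by 0.14 on the log2 scale between mock and untreated MM1S cells, and 10 of the 14 members were called higher, against 36% of all probes (39.9% called in either direction). TAP2 probe 2 was no longer called under that scaling, at -0.14 (adjusted p = 0.528) in MM1S and -0.35 (adjusted p = 0.146) in MM1R. Relative to that shift HLA-F probe 1 differed by 0.66, HLA-E by 0.62, HLA-B by 0.50 and B2M probe 1 by 0.22. The members below the shift were TAP2 probe 2 (-0.27), TAPBP probe 2 (-0.11) and NLRC5 (-0.07, at background). The brightest 500 probes together had a median change of 0.25 under median centring, beside 0.36 for B2M probe 1. Under quantile normalization the median of those 500 was -0.04.

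**Figure D5:**
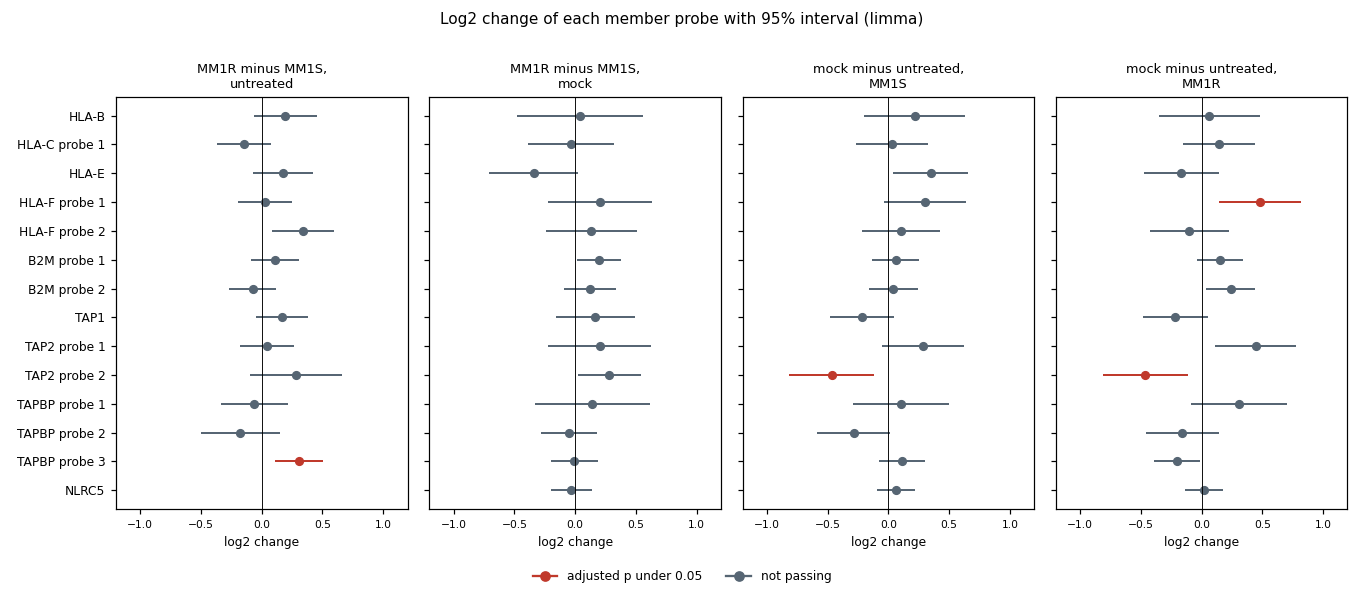
Log2 change of each probe tested, with its 95% interval from limma, between the lines (MM1R minus MM1S) and between experiments (mock minus untreated); red marks an adjusted p under 0.05. TAP2 probe 2 is red at -0.47 in both lines while TAP2 probe 1 lies right of 0, HLA-F probe 1 is red at 0.48 in MM1R, and TAPBP probe 3 at 0.31 between untreated cells.

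Other genes of the pathway moved between the experiments as well. In MM1S 5 of 11 proteasome and trimming genes were lower in mock transfected cells and 2 higher, where 13.7% of all genes were lower and 15.5% higher. The 3 catalytic subunits of the immunoproteasome were among those lower: PSMB8 by -0.68, PSMB10 by -0.58 and PSMB9 by -0.50. In MM1R 1 of the 11 was called, ERAP2, an aminopeptidase that trims peptides for class I, at +0.68. Of all genes 9.37% were higher and 9.03% lower in that comparison, so this count was near the share over all genes. HLA-G was higher in mock transfected cells of both lines, by 0.65 ± 0.11 in MM1R (adjusted p = 0.00017) and by 0.39 ± 0.11 in MM1S (adjusted p = 0.011). JAK1 was lower in mock MM1R cells, by -0.95, and higher in mock MM1S cells, by 0.66.

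Across the 8 group means, members did not follow 1 pattern. For each gene only the probe with the highest mean signal was used. So taken, the correlation of HLA-B with the other members lay between -0.39 (TAPBP) and 0.63 (NLRC5, at background). For HLA-F probe 1 it was 0.89 with B2M probe 1 and 0.91 with TAP2 probe 1. The remaining probes were not correlated, among them TAP2 probe 2, which read opposite to probe 1 between experiments. Of 5545 genes compared, those whose group means were most like HLA-B were CD276 (r = 0.99), which encodes the immune checkpoint ligand B7-H3, DNAJB11 (r = 0.97), a co-chaperone of the endoplasmic reticulum, and MSMO1 (r = 0.97), an enzyme of sterol synthesis. Those most like B2M were SELENOK, KPNA2 and REEP4 (r = 0.88 to 0.89), and those most like TAP1 were PGD (r = 0.99), ATP6AP1 (r = 0.98) and RPS15A (r = 0.97). These are descriptions over 8 points that share lines, experiments and normalization.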

How the data were processed

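Gene expression was measured on 24 Illumina HumanHT-12 arrays. The authors deposited log2 intensities before normalization, each beside its detection p-value, and a table of log2 values that the authors quantile normalized; their notes name limma 3.14.1. Here the deposited values before normalization were quantile normalized over all 24 arrays (largest difference to the authors' values 0.0111 among member probes). Of 47224 probes, 4 with a missing value were left out. Genes were named from the platform annotation, in which 30107 probes had 1 symbol, 8 several and 17109 none; 0 columns belonged to other samples. Comparisons were fitted in limma 3.58.1 (R 4.3.3), per experiment over its 12 arrays, or over all 24 arrays between experiments, with Benjamini-Hochberg adjustment over all probes tested and a threshold of 0.05. For gene counts each gene was represented by the probe with the highest mean signal. The fits were tested on simulated data.

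Groups came from the labels. The members, the 5 lists of neighbouring genes and the tests were chosen with earlier results of these data known. Every member probe that passed the filter was fitted in each comparison. From each list up to 4 called genes with the smallest adjusted p were named. For HLA-B, B2M and TAP1 the 3 genes most alike over group means were named. Replicates are separate experiments by the study's methods, and the number of arrays limits precision. Same-numbered arrays did not consistently deviate together, with correlations of -0.47 to 0.54 between mimetic and mock arrays of MM1R. Alternatives covered normalization, background, filters, arrays in the fit, weights, blocks and left-out arrays; those on mimetic replicates 1 and 2 were added after seeing the data. The promoter search used Python 3.11.15. The mature sequence of mir-150-5p and probe sequences were not used here.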

Additional observations from a re-analysis of the deposited data

Results flagged for a closer look

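HLA-B drew attention because its response to Dex differed between the lines by a test of the difference itself: the effect in MM1S minus that in MM1R was -0.58 ± 0.17 on the log2 scale (adjusted p = 0.023, limma). Of all probes 14.7% passed this test. The call was lost in 6 of 12 fits that left out 1 array, with median centring (adjusted p = 0.061) and with all 24 arrays in 1 fit (adjusted p = 0.223). In MM1S all 3 Dex treated arrays lay below all 3 untreated arrays, and 39.4% of all probes had groups without overlap there. In MM1R the groups overlapped.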

How the results depend on the processing

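Counts of member probes called, 2 for Dex in MM1S, 1 for the difference of the Dex effect between the lines and 1 between untreated lines, fell to 1, 0 and 0 with median centring, and to 0, 0 and 0 at an adjusted p under 0.001 with a fold over 2. With all 24 arrays in 1 fit, the counts for Dex in MM1S and for the difference of the Dex effect were 0 and 0 (HLA-B adjusted p = 0.078 for Dex in MM1S). Without a filter on dim probes they were 1 for Dex in MM1S, 0 between untreated lines, 1 between mock lines and 1 between experiments in MM1R; the 1 in both was HLA-C probe 2, over background on 1 array, and both calls between experiments in MM1R were lost (TAP2 probe 2 adjusted p = 0.054, HLA-F probe 1 adjusted p = 0.052). Array weights gave 2 between untreated lines, 4 between mock lines, 4 for the mimetic in MM1S both with and without replicate 3, and 4 between experiments in MM1R. Between mock and untreated cells, median centring gave 10 in MM1S and 5 in MM1R, normexp 1 in MM1R, the groups compared alone 4 in MM1S, and the stricter threshold 0 in both lines. Median centring gave 1 between mock lines, HLA-E, lower in MM1R at -0.52. Leaving out each array in turn gave 1 to 2 for Dex in MM1S, 0 to 1 for its difference between lines (TAPBP probe 1 in place of HLA-B without MM1S Dex replicate 1), 0 to 2 between untreated lines, between mock lines, for the mimetic in MM1S and for mimetic replicates 1 and 2, 0 to 1 between experiments in MM1S and 0 to 4 in MM1R. The cause was not tested. Of 1703 other values, 1640 stayed on their side of the threshold (30 uncalled ones among them turned sign), 23 lost their call, 40 gained one and 0 called values reversed. Of 1036 values with 1 array left out, 991 stayed on their side (98 uncalled ones turned sign), 34 lost their call, 11 gained one and 0 reversed.

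Replicate numbers did not pair the arrays consistently: no comparison had every pair of same-numbered arrays correlated over 0.1. With the replicate number as a block the counts were 2 for Dex in MM1S, 1 for its difference between lines, 0 for the mimetic in MM1S and 1 between experiments in MM1S. Between untreated lines the count was 1 with the numbers of the titles and 0 with those of the descriptions, which differ for untreated MM1R cells. Between experiments in MM1R it was 2 and 3, with TAP2 probe 1 gained in both. For mimetic replicates 1 and 2 it was 3, with HLA-F probe 1 gained. No slide block was run, and normalization within an experiment does not apply between experiments. The limits of signal are B2M near the top of the scale, and HLA-C probe 2 and NLRC5 at background.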
